A study of Homo sapiens with 18 samples.

Results

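The antioxidant and glutathione enzymes described here make and recycle glutathione, detoxify peroxides and superoxide, and couple glutathione to reactive compounds. Members were all probe sets whose single gene symbol in the platform annotation begins with GCL, GPX, GST, PRDX, TXNRD, GLRX or SOD, or is TXN, TXN2, CAT, GSS, GSR, NQO1, NQO2, SRXN1, EPHX1, MGST1, MGST2, MGST3 or MSRA. Of the 22283 probe sets on the array, 70 from 48 genes met this rule. Of these, 59 probe sets from 42 genes reached 50 on 3 or more arrays and were among the 13711 probe sets tested. The other 11 were below that limit, and they were the probe sets of GPX2, GPX5, GSTA3, GSTT1, GSTT2 and GSTT4 and single probe sets of CAT, GLRX3, GSTA1 and NQO1, genes that are also read by a tested probe set. Just inside the limit were GPX3 (201348_at), at 50 or more on 12 arrays, and PRDX2 (201006_at), on 17, and just outside it was GLRX3 (207506_at), on 1. SOD2, whose probe sets carry more than 1 symbol, and SRXN1 and MGST1 are not analysed here.

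SK-N-MC is a human line that the labels call neuroepithelioma and the study calls neuroblastoma. The cells were grown with ethanol vehicle (0 nM) or with 5 nM or 50 nM rotenone, an inhibitor of complex I of the mitochondrial respiratory chain, for 1 or 4 weeks, all in glucose medium without pyruvate. The 6 groups are named by week and dose, as in 4w50 nM for 4 weeks of 50 nM and 4w0 nM for its vehicle. They hold 3 arrays each, and an array carries RNA of 5 pooled dishes from 1 of 3 experiments, with the 50 nM dose described as killing some cells. The signals are linear expression indexes of Affymetrix HG-U133A arrays.

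Markers of the Ewing family of tumours and of neuroepithelioma, among them CD99, NKX2-2 and STEAP1, were above 50 on all 18 arrays. Of the sympathoadrenal neuroblast markers, PHOX2A and TH were below 50 on every array and DBH reached 50 on 4, while GATA2, GATA3 and MYCN reached it on all 18 and ISL1 on 17. The arrays labelled 1w0 nM stood apart from one another. Across probe sets, and after removal of each probe set's mean, 1w0 nM replicate 2 correlated at 0.52 with replicate 1 of its group and at -0.29 with replicate 3. It correlated at 0.32 to 0.44 with the 4w5 nM arrays, and replicate 3 correlated at -0.02 to 0.37 with the 4w50 nM arrays. Every 1-week value below rests on these 3 arrays. The summed signal of 10 fibroblast-like markers, all 10 above the limit, was 6562 to 8410 in 4w5 nM and 6960 to 7470 in 4w50 nM arrays, against 10365 to 10703 in 4w0 nM arrays. At 1 week the order was the opposite, with 10176 to 11122 in 1w5 nM and 10131 to 10684 in 1w50 nM arrays, against 6606 to 7341 in 1w0 nM arrays. Within that list COL3A1 and LUM were higher on all 4w5 nM arrays than on all 4w0 nM arrays. At 1 week LUM was higher on 1w0 nM replicates 1 and 2 (142 and 200) than on every rotenone array (51.5 to 130.3). COL3A1 was so on 1w0 nM replicate 2 (1248). On 1w0 nM replicate 3, COL3A1, FN1 and LUM were at 43.9, 36.9 and 10.2, below every 1-week rotenone array. The summed signal of 3 glial markers was 152 to 175 in 4w5 nM and 181 to 262 in 4w50 nM arrays, against 414 to 494 in 4w0 nM arrays, with S100B above 50 on all arrays and SOX10 on none. That of 4 macrophage markers was 1398 to 1623 in 4w5 nM and 224 to 334 in 4w50 nM arrays, against 433 to 508 in 4w0 nM arrays. At 1 week this sum was 135 to 1124 in 1w0 nM, 333 to 524 in 1w5 nM and 291 to 380 in 1w50 nM arrays. PTPRC was above 50 on all arrays, CD163 on 3, and CD14 and TYROBP on none. The 7 Ewing family markers summed to 11952 to 13390 in 4w5 nM and 10029 to 11440.3 in 4w50 nM arrays, against 12542 to 12898 in 4w0 nM arrays. The 18 hybridization-control probe sets had 0.496 times the signal on the 6 rotenone arrays of 4 weeks that they had on the other 12. The part of these differences in the results below was not tested, and in bulk RNA fewer cells of a type cannot be told from less RNA per cell.

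Glutathione is a tripeptide made in successive steps by glutamate-cysteine ligase, a dimer of the catalytic subunit GCLC and the modifier subunit GCLM, and by glutathione synthetase (GSS). Glutathione peroxidases and peroxiredoxins reduce peroxides at the cost of glutathione or thioredoxin, which glutathione reductase (GSR) and the thioredoxin reductases regenerate with NADPH. Glutathione S-transferases couple glutathione to electrophiles. Many of these genes are known targets of NRF2 (NFE2L2), a transcription factor that KEAP1 holds in check and that binds, with small MAF partners, an antioxidant response element. Rotenone is known to raise the leak of superoxide from complex I.

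The core of that element, TGACNNNGC, was searched on both strands of the 250 bases before each RefSeq start site (GRCh38.p14), with matches allowed to overlap. It was found for 8 of the 33 member genes that had a window, which is 24.2%, against 13.2% of all 27305 genes with a window. The genes were GCLM, TXNRD1, EPHX1, GSTP1, GSTA4, GSTM1, GSTM5 and GSTO1. The windows of GCLM, TXNRD1, GSTP1 and EPHX1 are printed because these genes carry the core yet changed in opposite directions at 4 weeks, and the capitals mark the core, which in GCLM and in the second TXNRD1 start lies on the other strand.
GCLM (chr1:93909431-93909680, minus strand): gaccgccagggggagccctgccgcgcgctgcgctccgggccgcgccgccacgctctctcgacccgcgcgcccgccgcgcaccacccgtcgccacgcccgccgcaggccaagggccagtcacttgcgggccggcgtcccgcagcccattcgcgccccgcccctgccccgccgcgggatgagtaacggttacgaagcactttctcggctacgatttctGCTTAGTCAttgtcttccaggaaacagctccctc
TXNRD1, first start (chr12:104215529-104215778, plus strand): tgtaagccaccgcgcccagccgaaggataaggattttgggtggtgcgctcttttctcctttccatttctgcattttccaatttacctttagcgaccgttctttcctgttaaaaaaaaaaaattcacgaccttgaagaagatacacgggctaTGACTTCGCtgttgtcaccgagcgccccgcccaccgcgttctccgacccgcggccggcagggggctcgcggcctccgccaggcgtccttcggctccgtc
TXNRD1, second start (chr12:104286782-104287031, plus strand): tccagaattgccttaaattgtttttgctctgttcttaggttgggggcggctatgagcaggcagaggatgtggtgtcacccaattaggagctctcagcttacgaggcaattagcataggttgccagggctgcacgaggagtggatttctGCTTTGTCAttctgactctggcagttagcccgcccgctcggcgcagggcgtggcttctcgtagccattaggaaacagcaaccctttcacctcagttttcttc
GSTP1 (chr11:67583562-67583811, plus strand): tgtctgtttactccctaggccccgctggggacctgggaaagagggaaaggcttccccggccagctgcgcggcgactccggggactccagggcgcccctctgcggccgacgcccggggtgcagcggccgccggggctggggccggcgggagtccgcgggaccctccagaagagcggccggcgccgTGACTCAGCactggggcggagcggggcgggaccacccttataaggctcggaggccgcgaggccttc
EPHX1 (chr1:225825104-225825353, plus strand): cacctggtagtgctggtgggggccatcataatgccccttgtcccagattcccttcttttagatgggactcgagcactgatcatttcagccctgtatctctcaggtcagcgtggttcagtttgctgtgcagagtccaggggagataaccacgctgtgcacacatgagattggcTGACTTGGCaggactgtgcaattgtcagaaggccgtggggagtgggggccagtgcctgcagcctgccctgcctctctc
The printed EPHX1 window precedes a start site inside the gene, which begins at chr1:225810124. A match is only a description of these letters and does not show binding.

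After 4 weeks the members moved both ways. With 5 nM, 21 of the 59 members (35.6%) passed the test, against 32.4% of all probe sets, and 5 rose and 16 fell. The 16 are 27.1% of the members, against 14.1% lower over all probe sets, and the 5 are 8.47%, against 18.3% higher. With median scaling 7 rose and 12 fell, and without 4w0 nM replicate 2 the count was 13. With 50 nM, 23 members (39%) passed, against 41% of all probe sets, and 9 rose (22.9% of all probe sets) and 14 fell (18.1%). The share of members that passed was thus close to that of the whole array at both doses. With array weights 45 members (76.3%) passed with 5 nM and 39 (66.1%) with 50 nM, against 60.6% and 61.9% of all probe sets. These weights ran from 0.009 to 6.045 and had not converged, so the counts are not a sound alternative. A call is an adjusted p below 0.05 in limma, fitted on log2 signals across all probe sets and all 18 arrays. Called changes of at least 1.5-fold were seen in 12 members with 5 nM and 14 with 50 nM, against 22% and 28.2% of all probe sets. The median log2 difference over the members was -0.045 with 5 nM (0.031 over all probe sets) and 0.065 with 50 nM (0.012 over all). Both doses, which share their vehicle arrays, had 3 members higher in common and 9 lower in common. The share of all probe sets called in common was not counted, so nothing particular to the members is read from this. No gene with several probe sets had called probe sets of opposite sign at either dose, among 15 such genes. In 5 of these genes with 5 nM and 4 with 50 nM, some probe sets were called and others were not. The shares over all genes with several probe sets were not counted.

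**Figure D1:**
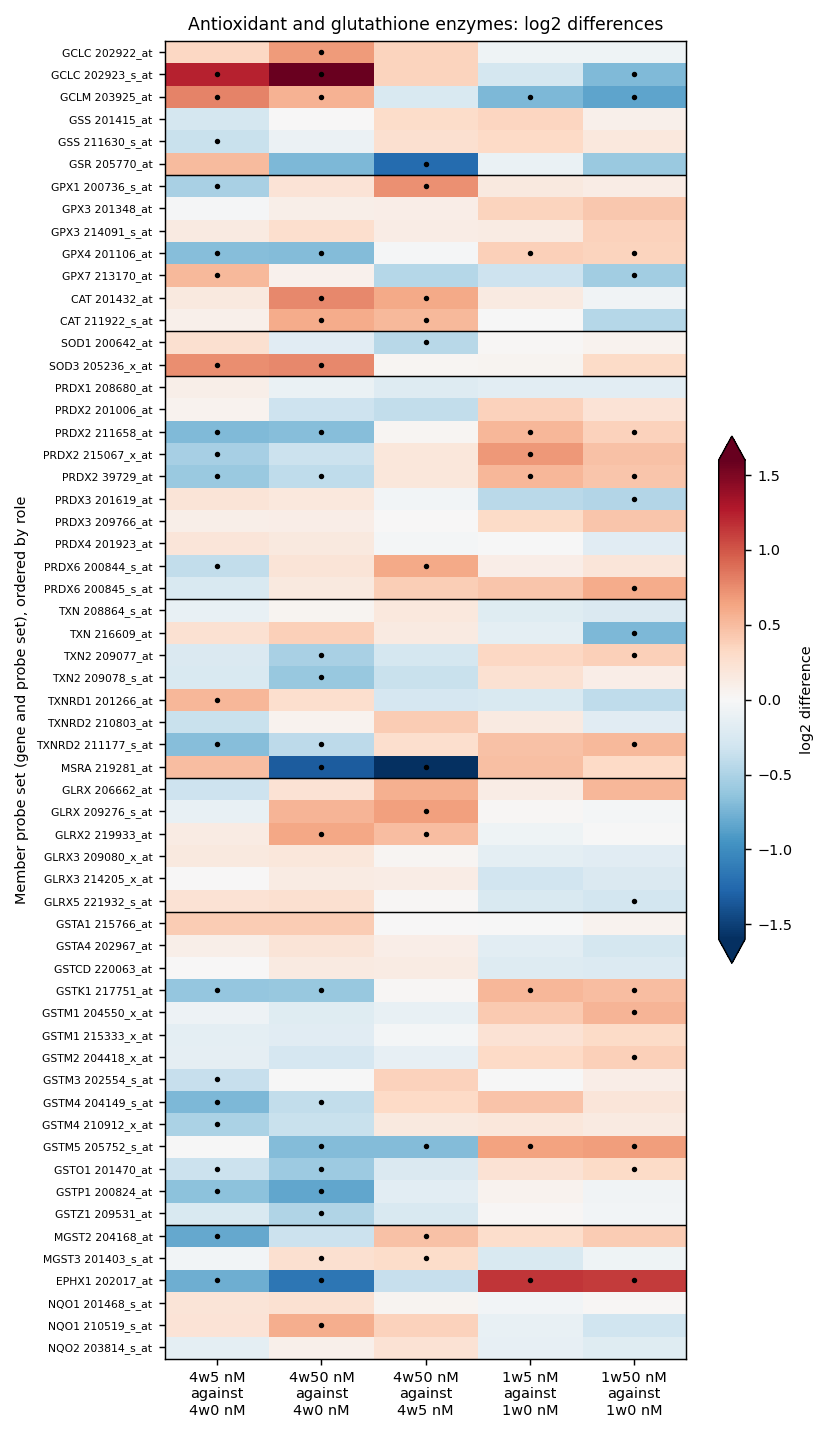
Log2 difference (colour) of the 59 member probe sets (rows, ordered by role, black lines between roles) in 4w5 nM and 4w50 nM against 4w0 nM, in 4w50 nM against 4w5 nM, and in 1w5 nM and 1w50 nM against 1w0 nM cells; a dot marks an adjusted p below 0.05. GCLC and GCLM are red and the glutathione S-transferases white to blue in the 4-week vehicle comparisons, apart from GSTA1 and weakly GSTA4 and GSTCD.

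The largest increase among the members at 4 weeks was that of the ligase which starts glutathione synthesis. GCLC, the catalytic subunit of the ligase, had signals at 4 weeks, on the probe set with the higher mean (202922_at), of 384, 368 and 334 with vehicle, 459, 399 and 514 with 5 nM and 722, 666 and 406 with 50 nM. It passed the test with 50 nM, by a log2 difference of 0.68 ± 0.19 (SE; adjusted p = 0.00772), and not with 5 nM (0.33 ± 0.19, adjusted p = 0.185), and without 4w50 nM replicate 1, its highest array, the adjusted p with 50 nM was 0.0561. The other GCLC probe set (202923_s_at) had larger differences, at 245, 227 and 213 with vehicle, 557, 450.3 and 613 with 5 nM and 881, 744 and 488 with 50 nM. The log2 difference was 1.23 ± 0.18 with 5 nM (2.35-fold, adjusted p = 0.000109) and 1.58 ± 0.18 with 50 nM (3-fold, adjusted p = 8.79e-06). On both probe sets all rotenone arrays were above all vehicle arrays.

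GCLM, the modifier subunit, had 316, 317 and 351 with vehicle, 717, 565 and 455 with 5 nM and 472, 472 and 505 with 50 nM at 4 weeks. All rotenone arrays were above all vehicle arrays, and the log2 difference was 0.80 ± 0.19 with 5 nM (adjusted p = 0.00362) and 0.56 ± 0.19 with 50 nM (adjusted p = 0.0235, between 0.0535 and 0.0679 without any of 4 arrays). GSS, the enzyme that completes glutathione, had 501, 543 and 468 with vehicle, 391, 389 and 401 with 5 nM and 468, 529 and 419 with 50 nM on 211630_s_at. It fell with 5 nM (-0.35 ± 0.12, adjusted p = 0.0268) and had a difference of -0.10 ± 0.12 with 50 nM (adjusted p = 0.522), and its other probe set (201415_at) did not pass.

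GSR, which regenerates glutathione from its disulfide, had 567, 582 and 503 with vehicle, 853, 718 and 781 with 5 nM and 345, 284 and 376 with 50 nM at 4 weeks. The 5 nM arrays were above and the 50 nM arrays below the vehicle arrays, yet neither difference passed the test (0.51 ± 0.33, adjusted p = 0.243, and -0.72 ± 0.33, adjusted p = 0.0842). The 1w0 nM arrays, which enter the shared spread, ranged widely for this gene, with 451, 832 and 230.4.

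**Figure D2:**
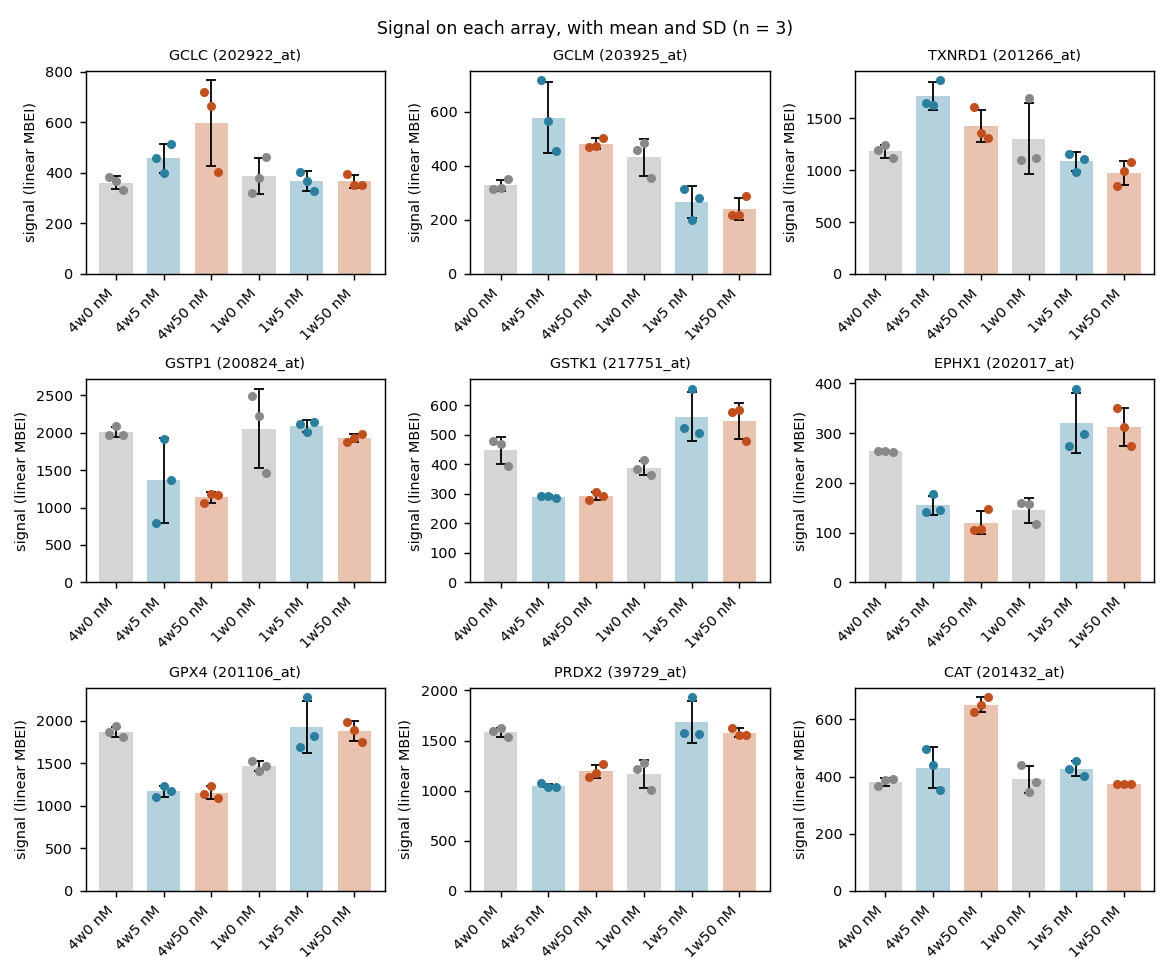
Signal (linear expression index, y axis from 0) of 9 members on each of the 18 arrays, by week and dose; points are arrays, bars are group means and lines are SD (n = 3). At 4 weeks GCLC and GCLM are higher and EPHX1, GPX4, GSTK1 and PRDX2 lower on all rotenone arrays than on the vehicle arrays, and at 1 week GCLM, EPHX1, GPX4, GSTK1 and PRDX2 lie on the opposite side of vehicle.

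Among enzymes that remove peroxides, GPX4 and CAT changed in opposite directions at 4 weeks. GPX4, the peroxidase that acts on lipid peroxides in membranes, had 1863, 1932 and 1809 with vehicle, 1099.7, 1237 and 1170.2 with 5 nM and 1136, 1235 and 1088 with 50 nM. All rotenone arrays lay below all vehicle arrays. The log2 differences were -0.68 ± 0.10 (adjusted p = 0.000148) with 5 nM and -0.70 ± 0.10 (adjusted p = 6.86e-05) with 50 nM. Catalase (CAT, 201432_at), which breaks down hydrogen peroxide in peroxisomes, had 366, 389 and 391 with vehicle, 498, 439 and 355 with 5 nM and 625, 649.6 and 677 with 50 nM. It was higher on all 50 nM arrays (0.77 ± 0.13, adjusted p = 0.00018), whereas the 5 nM and vehicle arrays overlapped (0.16 ± 0.13, adjusted p = 0.366). Its dimmer probe set (211922_s_at), at 129.9, 142 and 145 with vehicle, 168, 170.0 and 108 with 5 nM and 191, 199.9 and 239 with 50 nM, gave 0.59 ± 0.17 with 50 nM (adjusted p = 0.00986).

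GPX1, the cytosolic peroxidase, fell with 5 nM, at 958, 1023 and 1013 with vehicle, 860.5, 776 and 508 with 5 nM and 1200.2, 1159.8 and 1117 with 50 nM (-0.52 ± 0.17, adjusted p = 0.0276, against 0.22 ± 0.17, adjusted p = 0.33, with 50 nM). GPX7, a peroxidase of the endoplasmic reticulum, rose with 5 nM (0.52 ± 0.16, adjusted p = 0.0198) and both probe sets of GPX3, the secreted form, did not pass at either dose. Of the superoxide dismutases, cytosolic SOD1 did not pass against vehicle, at 2577, 2795 and 2704 with vehicle, 3340.4, 3936 and 2525 with 5 nM and 2236, 2611 and 2283 with 50 nM and differences of 0.26 ± 0.13 and -0.18 ± 0.13 (adjusted p = 0.14 and 0.276). SOD3, the extracellular form, rose at both doses, but from near the limit of detection, at 51.8, 57.2 and 58.5 with vehicle, 89.7, 81.1 and 112 with 5 nM and 78.4, 136 and 80.9 with 50 nM (0.75 ± 0.20, adjusted p = 0.00846, and 0.77 ± 0.20, adjusted p = 0.00516).

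The peroxiredoxins, which use thioredoxin to reduce peroxides, had 10 probe sets, of which 4 fell and none rose with 5 nM and 2 fell and none rose with 50 nM at 4 weeks, where 14.1% and 18.1% of all probe sets fell. Of the 4, 3 read PRDX2. The decreases were in PRDX2, a cytosolic member, and in 1 probe set of PRDX6. PRDX2 (39729_at) had 1595, 1623 and 1532 with vehicle, 1072, 1039 and 1041 with 5 nM and 1135, 1179.5 and 1261 with 50 nM, without overlap between rotenone and vehicle. The log2 differences were -0.59 ± 0.10 (adjusted p = 0.000417) and -0.41 ± 0.10 (adjusted p = 0.00435). The PRDX2 probe set 211658_at had 599.7, 614 and 537 with vehicle, 374, 362 and 332 with 5 nM and 339.6, 342 and 412 with 50 nM and differences of -0.71 ± 0.13 and -0.68 ± 0.13 (adjusted p = 0.000449 and 0.000401). The dim PRDX2 probe set 215067_x_at, at 87.2, 123 and 129 with vehicle, 81.0, 64.6 and 88.0 with 5 nM and 87.5, 94.5 and 81.5 with 50 nM, passed only with 5 nM (-0.53 ± 0.17, adjusted p = 0.0228, up to 0.111 without single arrays; with 50 nM -0.35 ± 0.17, adjusted p = 0.11), and 201006_at, near the limit of 50, did not pass.

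PRDX1, a cytosolic peroxiredoxin, had 3466, 3438 and 3361 with vehicle, 4372, 4467 and 2520.1 with 5 nM and 3084, 3367 and 3058 with 50 nM and did not pass at either dose (0.10 ± 0.15 and -0.11 ± 0.15, adjusted p = 0.643 and 0.573). Neither did mitochondrial PRDX3 nor PRDX4 of the endoplasmic reticulum. The PRDX6 probe set that passed with 5 nM (200844_s_at) gave -0.40 ± 0.12 (adjusted p = 0.0177), and the other (200845_s_at), at 1347, 1274 and 1247 with vehicle, 1116, 1087 and 1067 with 5 nM and 1512, 1352 and 1453 with 50 nM, gave -0.24 ± 0.14 (adjusted p = 0.187). PRDX6 reduces phospholipid peroxides with glutathione rather than thioredoxin.

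In the thioredoxin system, cytosolic thioredoxin reductase (TXNRD1) rose with 5 nM, at 1192, 1242 and 1115 with vehicle, 1645, 1627 and 1866 with 5 nM and 1606, 1357 and 1313 with 50 nM. All rotenone arrays were above all vehicle arrays, and the test passed with 5 nM (0.53 ± 0.15, adjusted p = 0.0106) but not with 50 nM (0.26 ± 0.15, adjusted p = 0.164). The mitochondrial pair fell with 50 nM. TXN2, mitochondrial thioredoxin, did so on both its probe sets, with a log2 difference of -0.52 ± 0.12 (adjusted p = 0.0029) on 209077_at and of -0.60 ± 0.16 (adjusted p = 0.00587) on 209078_s_at, which had 288, 305 and 324 with vehicle, 254, 287 and 236 with 5 nM and 199, 194 and 211 with 50 nM. TXNRD2, its reductase, fell on 211177_s_at, at 111, 113 and 114 with vehicle, 73.8, 70.0 and 66.6 with 5 nM and 89.4, 80.5 and 84.1 with 50 nM (-0.69 ± 0.15, adjusted p = 0.00257, and -0.41 ± 0.15, adjusted p = 0.0385). The call with 50 nM was lost in 9 of 30 alternatives (adjusted p up to 0.105), and the other TXNRD2 probe set (210803_at) did not pass (-0.36 ± 0.16 and 0.05 ± 0.16).

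Cytosolic thioredoxin itself (TXN, 208864_s_at) had 1894, 2462 and 2428 with vehicle, 2346, 2325 and 1615 with 5 nM and 2142, 2513 and 2307 with 50 nM and did not pass (-0.12 ± 0.15 and 0.04 ± 0.15, adjusted p = 0.583 and 0.842). Its dim probe set (216609_at), at 154, 233 and 272 with vehicle, 310.5, 247 and 211 with 5 nM and 290.1, 356 and 211 with 50 nM, did not pass at 4 weeks either. MSRA, which repairs oxidized methionine with electrons from thioredoxin, had 256, 252 and 249.5 with vehicle, 341, 361 and 368 with 5 nM and 87.4, 83.5 and 138 with 50 nM. The 50 nM arrays were far below the others (-1.33 ± 0.32, adjusted p = 0.00342, 2.52-fold lower). All 5 nM arrays were above the vehicle arrays, yet the difference did not pass (0.50 ± 0.32, adjusted p = 0.254). The 1w0 nM arrays, which enter the shared spread, ranged widely for MSRA too, with 252, 343 and 86.8.

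Of the 6 glutaredoxin probe sets, which read enzymes that reduce mixed disulfides of glutathione, none passed with 5 nM and 1 rose with 50 nM. This was GLRX2, a mitochondrial and nuclear member, at 343, 441 and 462 with vehicle, 529, 478 and 362 with 5 nM and 591, 644 and 670.3 with 50 nM (0.62 ± 0.16 with 50 nM, adjusted p = 0.00441). GLRX3 and GLRX5, which serve iron-sulfur proteins, did not pass in any 4-week comparison with vehicle.

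The glutathione S-transferases, like the peroxiredoxins, had decreases and no increases among their 4-week calls against vehicle. Of 14 probe sets from 12 genes, 6 fell and none rose with 5 nM, and 6 fell and none rose with 50 nM. Over all probe sets 14.1% fell and 18.3% rose with 5 nM, and 18.1% and 22.9% with 50 nM. The transferases had median log2 differences of -0.199 and -0.309. GSTP1, the pi-class enzyme, had 1971, 2093 and 1965 with vehicle, 796, 1921 and 1369 with 5 nM and 1054, 1187 and 1165 with 50 nM. The log2 difference was -0.65 ± 0.22 with 5 nM (adjusted p = 0.0316) and -0.83 ± 0.22 with 50 nM (adjusted p = 0.00654). The 5 nM arrays were spread from 796 to 1921, and without the lowest of them, replicate 1, the adjusted p was 0.201. GSTK1, the kappa-class enzyme of mitochondria and peroxisomes, had tighter arrays, at 479.9, 468 and 396 with vehicle, 292, 294 and 285 with 5 nM and 280.2, 306 and 293 with 50 nM. Its differences were -0.62 ± 0.13 and -0.61 ± 0.13 (adjusted p = 0.00164 and 0.00132).

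The mu-class genes lie side by side and are similar in sequence, so that probe sets may bind more than their own transcript. GSTM4 passed with 5 nM on 210912_x_at (-0.50 ± 0.16, adjusted p = 0.021; with 50 nM -0.35 ± 0.16, adjusted p = 0.0847). Its other probe set (204149_s_at) had 148, 171 and 159 with vehicle, 98.8, 108 and 84.2 with 5 nM and 105, 123 and 136 with 50 nM and fell at both doses (-0.72 ± 0.14, adjusted p = 0.0012, and -0.40 ± 0.14, adjusted p = 0.0354, the last up to 0.165 without single arrays). GSTM5 fell with 50 nM only, at 108, 120.4 and 134 with vehicle, 103, 107 and 158 with 5 nM and 73.4, 82.2 and 69.0 with 50 nM (-0.69 ± 0.18, adjusted p = 0.00516, with 5 nM adjusted p = 0.997). GSTM3 passed with 5 nM (-0.37 ± 0.13, adjusted p = 0.0319), and the probe sets of GSTM1 and GSTM2 did not pass at 4 weeks. GSTO1, the omega-class enzyme, fell at both doses (-0.34 ± 0.10 and -0.58 ± 0.10, adjusted p = 0.0177 and 0.000331). GSTZ1, which also degrades tyrosine products, fell with 50 nM (-0.48 ± 0.16, adjusted p = 0.0236).

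Among other detoxifying enzymes, microsomal epoxide hydrolase (EPHX1), which opens reactive epoxides, fell at both doses, at 264, 264 and 263 with vehicle, 141, 177 and 146 with 5 nM and 106, 108 and 147 with 50 nM at 4 weeks. No rotenone array reached the vehicle arrays. The log2 difference was -0.78 ± 0.17 with 5 nM (adjusted p = 0.00244) and -1.15 ± 0.17 with 50 nM (2.22-fold lower, adjusted p = 6.81e-05). MGST2, a membrane transferase that also makes leukotriene C4, had 203, 215 and 246 with vehicle, 119, 125 and 133 with 5 nM and 169.8, 172 and 180.5 with 50 nM and fell with 5 nM (-0.82 ± 0.15, adjusted p = 0.000505; with 50 nM -0.35 ± 0.15, adjusted p = 0.0678). MGST3 rose slightly with 50 nM (0.25 ± 0.09, adjusted p = 0.0372).

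NQO1, a quinone reductase often used as a readout of NRF2, had 153, 173 and 162 with vehicle, 183, 197 and 186 with 5 nM and 289.5, 331 and 150.4 with 50 nM on 210519_s_at. It rose with 50 nM (0.58 ± 0.23, adjusted p = 0.0495), although replicate 3 lay below all vehicle arrays, and with 5 nM the difference was 0.22 ± 0.23 (adjusted p = 0.498). The other NQO1 probe set (201468_s_at) and NQO2 did not pass. Of the 8 genes with the core of the element, GCLM rose at both doses and TXNRD1 with 5 nM, EPHX1, GSTP1 and GSTO1 fell at both, GSTM5 fell with 50 nM, and GSTA4 and GSTM1 did not pass.

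The doses were also set against each other. At 4 weeks 12 members (20.3%) differed between 50 nM and 5 nM, against 16.6% of all probe sets, and 8 were higher (9.53% of all) and 4 lower (7.07%) with 50 nM. With median scaling these were 6 and 5. Without 4w50 nM replicate 1 the count was 5. The higher ones were GPX1 (0.73 ± 0.17, adjusted p = 0.00736), both CAT probe sets (0.61 and 0.52), PRDX6 (200844_s_at, 0.60), GLRX (209276_s_at, 0.66), GLRX2 (0.49), MGST2 (0.47) and MGST3 (0.30). The calls of GLRX2 and of CAT on 211922_s_at were lost in 14 of 30 and 16 of 29 alternatives, among them the replicate block (adjusted p = 0.0607 and 0.059). The lower ones were MSRA (-1.83 ± 0.32, adjusted p = 0.00136), GSR (-1.23 ± 0.33, adjusted p = 0.015), GSTM5 (-0.69) and SOD1 (-0.44). MSRA and GSR are the members that lie on chromosome 8. Of the 521 tested probe sets of that chromosome, 233 were called lower and 11 higher at the higher dose. Their median log2 difference was -0.55, against 0.004 over all probe sets. Relative to the mean of the 4w0 nM arrays, the median of the chromosome was 0.29 to 0.40 on the 4w5 nM arrays and -0.28 to -0.26 on the 4w50 nM arrays. It also differed within the 1w0 nM group, at 0.29 on replicate 2 and -0.62 on replicate 3. Its part in the GSR and MSRA values was not tested.

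**Figure D3:**
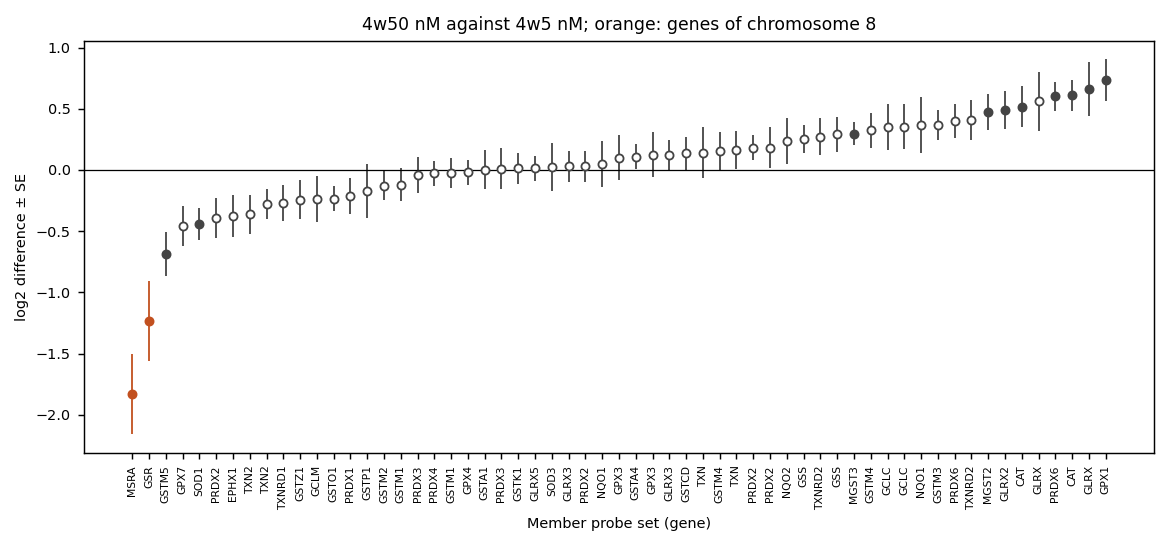
Log2 difference (y axis, with SE) of each of the 59 member probe sets in 4w50 nM against 4w5 nM cells, in rising order (x axis, gene names); filled points have an adjusted p below 0.05 and orange points are genes of chromosome 8. The orange points, MSRA at -1.83 and GSR at -1.23, are the lowest.

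After 1 week, 8 members (13.6%) passed with 5 nM, against 6.67% of all probe sets, of which 7 rose (4.79% of all) and 1 fell (1.88%). With 50 nM 18 (30.5%) passed, against 21.8%, of which 12 rose (8.21%) and 6 fell (13.6%). These calls rest on the 1w0 nM arrays and on the spread shared with the other groups. Without single arrays the counts ranged over 2 to 12 and 6 to 22, with only the groups compared in the fit they were 0 and 1, and with the 4w0 nM arrays as vehicle they were 0 and 0. EPHX1 had the largest difference, at 160.3, 158 and 117 with vehicle, 274, 389 and 298 with 5 nM and 350.0, 313 and 273 with 50 nM (1.14 ± 0.17, adjusted p = 0.000782, and 1.11 ± 0.17, adjusted p = 0.000414). The 1-week rotenone arrays were thus above the 4w0 nM arrays of this gene (263 to 264), and the 4w5 nM and 4w50 nM arrays near the range of the 1w0 nM arrays. GCLM fell at both doses, at 459, 485 and 355 with vehicle, 314, 201 and 281 with 5 nM and 217, 219.5 and 288 with 50 nM (-0.72 ± 0.19, adjusted p = 0.0284, and -0.84 ± 0.19, adjusted p = 0.00466). GCLC (202923_s_at), at 227, 287 and 308 with vehicle, 230.1, 212 and 230.2 with 5 nM and 158, 181 and 164 with 50 nM, fell with 50 nM (-0.70 ± 0.18, adjusted p = 0.0116).

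GPX4 rose at both doses at 1 week, at 1528, 1411 and 1469 with vehicle, 1689, 2272 and 1822 with 5 nM and 1987, 1893 and 1751 with 50 nM (0.38 ± 0.10 and 0.35 ± 0.10, adjusted p = 0.036 and 0.0226). PRDX2 (39729_at) did so too, at 1219.9, 1273 and 1010.2 with vehicle, 1571, 1930.4 and 1566 with 5 nM and 1628, 1556 and 1552 with 50 nM (0.53 ± 0.10 and 0.44 ± 0.10, adjusted p = 0.00584 and 0.00632). GSTK1 had 383, 414 and 366 with vehicle, 524, 656 and 505 with 5 nM and 579, 586 and 479 with 50 nM, with increases of 0.53 ± 0.13 and 0.49 ± 0.13 (adjusted p = 0.0208 and 0.0117). For these 3 genes every rotenone array of 1 week was above every vehicle array, the reverse of their order at 4 weeks. GSTM5 rose as well, at 81.5, 107 and 66.8 with vehicle, 139, 121 and 132 with 5 nM and 125, 134 and 139.5 with 50 nM (0.65 and 0.67).

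Other named members passed at 1 week with 50 nM alone. PRDX6 (200845_s_at) rose, at 992, 783 and 1323 with vehicle, 1364, 1452 and 1317 with 5 nM and 1667, 1521 and 1391 with 50 nM (0.59 ± 0.14, adjusted p = 0.00588). TXNRD2 (211177_s_at) rose, at 85.7, 62.2 and 98.8 with vehicle, 113, 125 and 96.9 with 5 nM and 115, 124 and 109 with 50 nM (0.52, adjusted p = 0.023). The dim TXN probe set (216609_at) fell, at 279, 250.0 and 225 with vehicle, 224, 252 and 199.8 with 5 nM and 138, 163 and 155 with 50 nM (-0.72 ± 0.21, adjusted p = 0.0213), with all 50 nM arrays below vehicle. Members that moved at 4 weeks but did not pass at 1 week include catalase, GSTP1, MSRA and SOD3. CAT (201432_at) had 440.2, 347 and 382 with vehicle, 425, 454 and 403 with 5 nM and 372, 373 and 374 with 50 nM. GSTP1 had 2485, 2218 and 1462 with vehicle, 2111, 2007 and 2149 with 5 nM and 1879, 1923 and 1978 with 50 nM, with its lowest array among vehicle. MSRA had 252, 343 and 86.8 with vehicle, 285, 253 and 285 with 5 nM and 219, 252 and 268 with 50 nM, so that vehicle replicate 3 was as low as the 4w50 nM arrays. SOD3, near the limit of detection, had 65.6, 51.5 and 65.2 with vehicle, 56.5, 74.0 and 57.3 with 5 nM and 69.8, 72.7 and 82.5 with 50 nM. The other members called with 50 nM were GSTM1 (204550_x_at, 0.55), GSTM2 (0.38), TXN2 (209077_at, 0.38) and GSTO1 (0.30), which rose, and GPX7 (-0.55), PRDX3 (201619_at, -0.47) and GLRX5 (-0.30), which fell.

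PRDX2 was called at 1 week on further probe sets. On 211658_at it rose at both doses, at 492, 439 and 415 with vehicle, 630.4, 739 and 579.8 with 5 nM and 561, 614 and 562 with 50 nM (0.53 and 0.37). The call with 50 nM (adjusted p = 0.0436) was kept in only 14 of 30 alternatives. It was lost with the replicate block (adjusted p = 0.054). On 215067_x_at PRDX2 rose with 5 nM, at 89.3, 88.4 and 83.5 with vehicle, 150.3, 150.4 and 123 with 5 nM and 104, 142 and 119 with 50 nM (0.69). The probe sets that follow did not pass at 1 week. GSTM4 (204149_s_at) had 151, 115 and 136 with vehicle, 179, 202 and 167 with 5 nM and 166, 143 and 148 with 50 nM. MGST2 had 179.5, 131 and 210.4 with vehicle, 204, 201 and 214 with 5 nM and 209.8, 225 and 242 with 50 nM. The lowest 50 nM array of MGST2 was level with its highest vehicle array, and the 50 nM arrays of GSTM4 overlapped with vehicle. GCLC (202922_at) had 319.8, 382 and 462 with vehicle, 405, 369 and 327 with 5 nM and 394, 353 and 352 with 50 nM. CAT (211922_s_at) had 182, 166 and 136 with vehicle, 144, 177 and 159 with 5 nM and 107, 118 and 127 with 50 nM, and its 50 nM arrays lay below vehicle. GLRX2 had 396, 314 and 423 with vehicle, 372, 331 and 374 with 5 nM and 370.2, 398 and 352 with 50 nM. TXN2 (209078_s_at) had 322, 333 and 202 with vehicle, 331, 327 and 332 with 5 nM and 275, 293 and 334 with 50 nM. Vehicle and 5 nM arrays of these 4 overlapped.

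Of the enzymes named whatever they did, GSR had 451, 832 and 230.4 with vehicle, 502, 324 and 425 with 5 nM and 219, 266 and 432 with 50 nM at 1 week. GSS (211630_s_at) had 455, 456 and 523 with vehicle, 559, 632 and 591 with 5 nM and 548, 559.5 and 507 with 50 nM. SOD1 had 3109, 2902 and 2297 with vehicle, 2889, 2621 and 2838 with 5 nM and 2859.7, 2896 and 2803 with 50 nM. GPX1 had 999, 798 and 1226 with vehicle, 986, 1269 and 1084 with 5 nM and 1133, 1064 and 1032 with 50 nM. Its vehicle arrays spanned all of its rotenone arrays but 1. PRDX1 had 4312, 3977 and 3479.5 with vehicle, 3496, 3354 and 3598 with 5 nM and 3337, 3526 and 3591 with 50 nM. TXN (208864_s_at) had 2396, 2119 and 2750.3 with vehicle, 2235, 2021 and 2069.8 with 5 nM and 1763, 1936 and 2522 with 50 nM, and its groups overlapped. TXNRD1 had 1099, 1699 and 1114 with vehicle, 1160.1, 985 and 1111 with 5 nM and 845, 995 and 1075 with 50 nM. NQO1 (210519_s_at) had 172, 199 and 294 with vehicle, 180.4, 221 and 195 with 5 nM and 164, 185 and 171 with 50 nM. The log2 differences of these 8 lay between -0.59 (GSR with 50 nM) and 0.31 (GSS with 5 nM), and none passed.

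Between the doses at 1 week no member passed in limma, against 0.00729% of all probe sets, and 3 (5.08%) had an unadjusted p below 0.05, against 14.7% of all. With the array weights, which had not converged, 12 (20.3%) passed, against 28.8%. The 4w0 nM and 1w0 nM vehicle groups differed in 2 members (3.39%), against 3.26% of all probe sets: EPHX1 (0.88 ± 0.17, adjusted p = 0.00757) and PRDX2 (39729_at, 0.45 ± 0.10, adjusted p = 0.0222), both higher in 4w0 nM cells, as were 2.65% of all probe sets. With only those groups in the fit neither passed, and without 1w0 nM replicate 3 there were 6.

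The effect of rotenone at 4 weeks was then set against that at 1 week in the same fit. For 5 nM 24 members (40.7%) differed, against 32.3% of all probe sets, and for 50 nM 30 (50.8%), against 45.2%. No member was called in the same direction at both weeks, against 0.102% of all probe sets with 5 nM and 0.438% with 50 nM. With 5 nM 6 members rose at 1 week and fell at 4 weeks and 1 did the reverse, and with 50 nM the counts were 9 and 2. Over all probe sets 2.38% and 1.18% did so with 5 nM, and 3.82% and 8.5% with 50 nM. The reverse pattern was that of GCLM at both doses and of GCLC with 50 nM. Of the members that differed for 5 nM, 6 were higher (15.4% of all probe sets) and 18 lower (16.8%) at 4 weeks, or 8 and 11 with median scaling. For 50 nM 13 were higher (25.5%) and 17 lower (19.7%). The members that differed most between weeks were EPHX1, GCLM and GCLC with 5 nM and GCLC and EPHX1 with 50 nM. EPHX1 differed by -1.92 ± 0.24 for 5 nM and -2.27 ± 0.24 for 50 nM (adjusted p = 2.97e-05 and 2.45e-06), and GCLC by 1.51 ± 0.26 and 2.29 ± 0.26 (adjusted p = 0.000379 and 4.19e-06). All these values include the 1w0 nM arrays. The fibroblast-like marker sums were higher with rotenone than with vehicle at 1 week and lower at 4 weeks. That was the order of EPHX1 and the reverse of that of GCLM at both doses and of GCLC with 50 nM. Its part in these values was not tested.

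**Figure D4:**
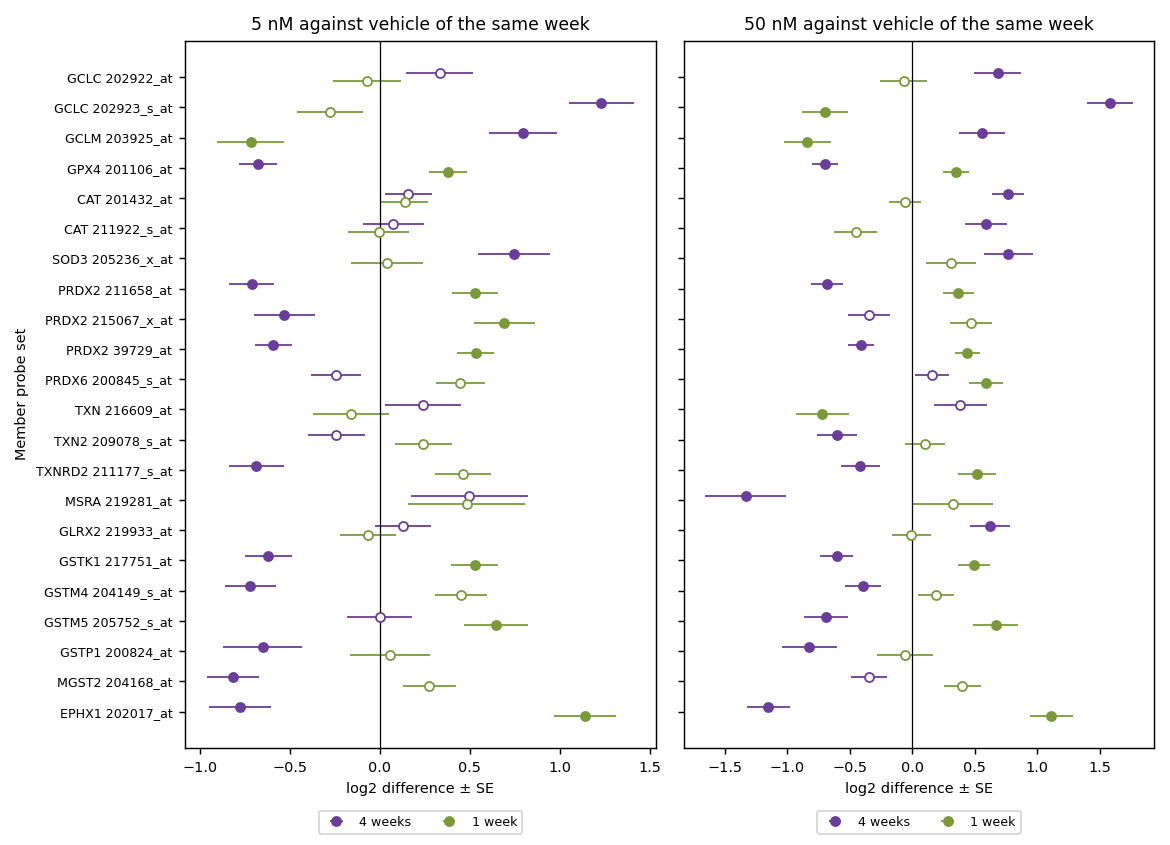
Log2 difference from vehicle (x axis, with SE) of the 22 member probe sets called with at least 1.5-fold, at 4 weeks (purple) and 1 week (green), with 5 nM on the left and 50 nM on the right; filled points have an adjusted p below 0.05. Of the 22, 19 lie on opposite sides of 0 at 4 weeks and 1 week at each dose, with GCLC and GCLM to the right at 4 weeks and EPHX1, GPX4, PRDX2 and GSTK1 to the left. Signs were opposite in 81.4% of all 59 members with 5 nM and 74.6% with 50 nM, and in 61.7% and 67.7% of all probe sets. The 22 were chosen by their calls in these comparisons, so those shares are not a like baseline for them.

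Genes around these enzymes were read from lists of NRF2 regulators, other NRF2 targets, NADPH supply and cystine and glutathione handling, each gene by its brightest probe set. The counts are to be read against all probe sets, of which 18.3% were called higher and 14.1% lower with 5 nM and 22.9% and 18.1% with 50 nM. Of 11 NRF2 regulators tested at 4 weeks, 5 nM gave 4 increases and 1 decrease and 50 nM gave 3 and 4. BACH1, a repressor that competes for the same element, rose at both doses (0.65 ± 0.18, adjusted p = 0.00892, and 0.76 ± 0.18, adjusted p = 0.00238). KEAP1 (-0.76 ± 0.26, adjusted p = 0.0282) and RBX1, a subunit of the ubiquitin ligase that KEAP1 recruits (-0.75 ± 0.17, adjusted p = 0.00204), fell with 50 nM. NFE2L2 itself, named after its values were seen, averaged 545 ± 33.4 with vehicle (SD, n = 3 in this and the following means), 844 ± 58.9 with 5 nM and 887 ± 88.2 with 50 nM, and rose (0.63 and 0.70, adjusted p = 0.00261 and 0.000833).

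Of 15 other NRF2 targets, 5 nM gave 3 increases and 4 decreases and 50 nM gave 2 and 4. The largest changes were decreases. HMOX1, heme oxygenase, averaged 431 ± 0.466, 82.2 ± 6.27 and 178 ± 47.1 at 0, 5 and 50 nM (-2.40 ± 0.22, adjusted p = 1.04e-06, and -1.31 ± 0.22, adjusted p = 0.000162). At 1 week it averaged 123 ± 31.0, 170 ± 35.5 and 147 ± 32.8 at these doses. The 4w0 nM vehicle was thus the highest group, above 1w0 nM by 1.85 ± 0.22 (adjusted p = 6.79e-05). AKR1C2, an aldo-keto reductase with close paralogs, averaged 89.0 ± 8.79, 19.4 ± 3.26 and 27.0 ± 7.09 at 0, 5 and 50 nM (-2.21 ± 0.19, adjusted p = 7.58e-07, and -1.75 ± 0.19, adjusted p = 6.18e-06). PIR, an iron-binding nuclear protein, was called higher with 5 nM (adjusted p = 0.00321), where its mean was 79.6 ± 40.8, but it was below 50 on all vehicle arrays of 4 weeks.

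Of 13 genes of NADPH supply, 2 were called higher and 2 lower for 5 nM, and 3 higher and 3 lower for 50 nM. NNT, the mitochondrial transhydrogenase, rose at both doses (0.51 ± 0.16, adjusted p = 0.0239, and 0.92 ± 0.16, adjusted p = 0.000284). TKT of the pentose phosphate pathway fell with 5 nM (-0.61 ± 0.17, adjusted p = 0.00973), and MTHFD2 of mitochondrial folate metabolism rose with 50 nM (0.58 ± 0.14, adjusted p = 0.00316).

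Of 15 genes of cystine supply and of glutathione transport and breakdown, 5 were called higher and 1 lower for 5 nM, and 4 higher and 2 lower for 50 nM. CTH, which makes cysteine from cystathionine, averaged 158 ± 8.93, 276 ± 44.3 and 541 ± 90.2 at 0, 5 and 50 nM and rose (0.79 ± 0.20, adjusted p = 0.00544, and 1.76 ± 0.20, adjusted p = 6.55e-06). CHAC1, which degrades glutathione, rose as well (1.65 ± 0.18, adjusted p = 8.63e-06, and 0.98 ± 0.18, adjusted p = 0.000389). SLC1A4, a neutral amino acid transporter, fell with 50 nM (-1.82 ± 0.37, adjusted p = 0.000833). SLC7A11, the cystine importer, named after its values were seen, averaged 808 ± 126, 1623 ± 409.6 and 1612 ± 346 at these doses and rose (0.99 and 0.99, adjusted p = 0.000973 and 0.000672).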

How the data were processed

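Total RNA of SK-N-MC cells was measured on 18 Affymetrix HG-U133A arrays. The authors' software was dChip, which fits a model-based index to the probes of each probe set after normalization. The deposited intensities are these indexes on a linear scale, between 0.46 and 11258.4. How the arrays were normalized, and by which dChip release, is not given in the sources used here. Signals were used as deposited, values below 16 were set to 16, and log2 was taken. Of 22283 probe sets, 19071 have 1 gene symbol in the platform annotation, 1043 several and the rest none. Those with 1 symbol and at least 50 on at least 3 arrays, 13711 in all, were fitted with limma 3.58.1 (R 4.3.3), a mean for each of the 6 groups and a variance that depends on signal. Benjamini-Hochberg adjustment ran over all probe sets of a comparison. The 12 residual degrees of freedom, from 3 arrays a group, limit the precision.

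Signals on every array are given for members called with at least 1.5-fold in any comparison of a dose with vehicle and, whatever they did, for the best-measured probe set of GCLC, GCLM, GSS, GSR, SOD1, SOD2, CAT, GPX1, GPX4, TXN, TXNRD1, PRDX1, NQO1 and SRXN1 where it was tested. From each surrounding list the 3 genes with the largest change among those called at 4 weeks are named. The members and lists were chosen with earlier results of these data known. A simulation took the mean and spread of each probe set from these arrays, with independent normal noise, and changed 200 of 13711 probe sets. There 77.5% of 2-fold changes were found for 5 nM and 81% for 50 nM at 4 weeks, and 13% and 25% of 1.5-fold changes. In the data 32.4% and 41% of probe sets were called, which alters the adjustment, so these shares do not give the power of the comparisons. Figures were drawn with matplotlib. Alternatives were other floors and filters, quantile normalization, median scaling, only the groups compared, array weights, a replicate block, a variance with no trend, the methods' t-test and leaving out each array. Setting the 1-week doses against 4w0 nM was added after seeing the data.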

Additional observations from a re-analysis of the deposited data

Results flagged for a closer look

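The effect of rotenone against its own week's vehicle differed between 4 weeks and 1 week by limma's interaction term for 24 members with 5 nM and 30 with 50 nM. The values below are those of the members named for a call of at least 1.5-fold against vehicle, with adjusted p between 2.45e-06 and 0.0284 over 13711 probe sets. Values are the log2 effect at 4 weeks minus that at 1 week, and the effect at 1 week rests on the 1w0nM arrays, which stood apart from each other.

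GCLC (202923_s_at) differed by 1.51 with 5 nM and by 2.29 with 50 nM. For GCLM the differences were 1.52 with 5 nM and 1.40 with 50 nM. Positive differences with 50 nM were also measured for GCLC (202922_at, 0.75), CAT (201432_at, 0.82, and 211922_s_at, 1.05), TXN (216609_at, 1.10) and GLRX2 (0.63).

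EPHX1 differed by -1.92 with 5 nM and by -2.27 with 50 nM, and MSRA by -1.66 with 50 nM. Among glutathione transferases, the differences with 5 nM were -1.09 for MGST2, -1.17 for GSTM4 (204149_s_at) and -1.15 for GSTK1. With 50 nM they were -0.75 for MGST2, -0.59 for GSTM4, -1.10 for GSTK1 and -1.36 for GSTM5. Of the 4 probe sets of PRDX2, 201006_at was not called, and the others differed by -1.24 (211658_at), -1.22 (215067_x_at) and -1.12 (39729_at) with 5 nM, and by -1.05, -0.82 and -0.85 with 50 nM. GPX4 differed by -1.06 with 5 nM and -1.05 with 50 nM, and TXNRD2 (211177_s_at) by -1.15 and -0.93. PRDX6 (200845_s_at) differed by -0.69 with 5 nM, and TXN2 (209078_s_at) by -0.71 with 50 nM.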

How the results depend on the processing

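Counts here are members called. Without a filter on low values 7, not 12, were called for 50 nM against 5 nM at 4 weeks. With only the groups compared in the fit, 0 were called for 5 nM and 1 for 50 nM against vehicle at 1 week, and 0 between the 4w0nM and 1w0nM groups. With array weights (0.009 to 6.045, not converged), 2 and 11 were called for 5 nM and 50 nM against vehicle at 1 week and 45 and 39 at 4 weeks. The same weights gave 12 for 50 nM against 5 nM at 1 week and 28 at 4 weeks. The methods' t-test with a 2-fold change called 1 for 5 nM and 1 for 50 nM against vehicle at 1 week, and 1 and 3 at 4 weeks. It called 2 for 50 nM against 5 nM at 4 weeks and 0 between vehicle groups. After Benjamini-Hochberg that t-test called 0, 0, 4 and 0 for 5 nM and 50 nM against vehicle at 1 week, 50 nM against 5 nM at 4 weeks and 4w0nM against 1w0nM. With the 4w0nM arrays as vehicle for 1 week, chosen after seeing the data, 0 were called for either dose, and PRDX2 changed sign with 50 nM at 1 week (211658_at -0.01, 39729_at -0.004). The cause of these changes was not tested.

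Leaving out each array in turn gave 2 to 12 for 5 nM and 6 to 22 for 50 nM at 1 week, and 13 to 23 and 17 to 28 at 4 weeks. It gave 5 to 16 for 50 nM against 5 nM at 4 weeks, 0 at 1 week, 1 to 6 between vehicle groups, and 18 to 28 and 24 to 34 for the differences between weeks with 5 nM and 50 nM. Counts moved by over 1.5 times for 5 nM at 1 week without replicate 2 or 3 of 1w5nM (2 and 5) or 1 of 1w0nM (4). For 50 nM at 1 week they did so without replicate 1 or 2 of 1w50nM (6 and 10) or 2 of 1w0nM (10), and for 5 nM at 4 weeks without replicate 2 of 4w0nM (13). For 50 nM against 5 nM at 4 weeks they did so without replicate 1 or 2 of 4w50nM (5 and 6) or 2 of 4w5nM (7). Between vehicle groups they did so without replicate 3 of 1w0nM (6) or any 1 of 4w0nM (1).

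Of the alternative values for single probe sets, 2460 kept their direction and side of the threshold, 197 kept only their direction and 2 changed sign. Same-numbered arrays did not deviate together (median r -0.028 over 45 pairs, 11 of them over 0.1), and the main fit did not pair them. Deviations from the mean of so few arrays a group cannot decide whether the numbers mark shared experiments. With replicate number as a block, 7 and 16 were called at 1 week, 21 and 21 at 4 weeks, 9 for 50 nM against 5 nM at 4 weeks and 0 at 1 week, 2 between vehicle groups, and 22 and 30 for the differences between weeks. Members near the limit of 50 are the least well measured.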

Other observations

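2 lists near these enzymes that belong to none of the comparisons above were measured too. The first held 25 other redox proteins, among them protein disulfide isomerases and their partners, selenoproteins, metallothioneins and thioredoxin-related genes. Of these, 4 were higher and 3 lower with 5 nM than with vehicle at 4 weeks. With 50 nM, 5 were higher and 4 lower. Over all probe sets 18.3% were called higher and 14.1% lower with 5 nM, and 22.9% and 18.1% with 50 nM. The list as a whole did not stand out from these shares. TXNIP, the thioredoxin-interacting protein that binds and inhibits thioredoxin, was lower with 5 nM and 50 nM than with vehicle (-1.15 ± 0.19 and -0.63 ± 0.19 on the log2 scale ± SE, adjusted p = 0.00026 and 0.0137, limma). Its mean was highest in the 4w0 nM vehicle, at 162, against 90.4, 102 and 116 at 0, 5 and 50 nM at 1 week. The 4w0 nM cells were above the 1w0 nM cells by 0.85 ± 0.19 (adjusted p = 0.0181, limma). SELENOP, the secreted selenium carrier, was higher at both doses (0.95 ± 0.16 and 1.06 ± 0.16, adjusted p = 0.000333 and 7.67e-05). ERO1A, which oxidizes protein disulfide isomerase in the endoplasmic reticulum, was higher as well (0.76 ± 0.15 and 1.05 ± 0.15, adjusted p = 0.000952 and 4.05e-05).

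Of 5 genes of selenoprotein synthesis, which insert selenocysteine into enzymes such as the glutathione peroxidases and thioredoxin reductases, 2 were higher and 1 lower at each dose at 4 weeks. Over all probe sets 18.3% were higher and 14.1% lower with 5 nM, and 22.9% and 18.1% with 50 nM. SECISBP2, which binds the selenocysteine insertion element, was higher with 5 nM and 50 nM than with vehicle (0.74 ± 0.16 and 0.77 ± 0.16, adjusted p = 0.00252 and 0.00124). SEPHS1, a selenophosphate synthetase family member, was also higher (0.40 ± 0.11 and 0.68 ± 0.11, adjusted p = 0.00936 and 0.000124). TRNAU1AP, a protein bound to the selenocysteine transfer RNA, was lower (-0.45 ± 0.15 and -0.56 ± 0.15, adjusted p = 0.0328 and 0.00809).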
